A study of Homo sapiens with 6 samples.

Results

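This account covers the noncoding snoRNA host genes GAS5, ZFAS1, SNHG5, SNHG8, SNHG15 and SNHG16 in BE(2)-C cells, an established human neuroblastoma line. They are the genes with a named row among 10 host genes listed by symbol, of 14779 genes tested. The listed SNHG1, SNHG3, SNHG7 and SNHG12 were not analysed here. RNA was measured in 3 samples treated with 10 µM NCT-503, an inhibitor of the serine synthesis enzyme PHGDH, and in 3 samples given the vehicle DMSO, all collected after 2 days. Each sample was hybridised to 1 Affymetrix whole-transcript array. Both groups came from this 1 line, and the design text calls the samples independent without naming separate cultures, so a p-value reflects the spread between the arrays, which may be technical.

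Small nucleolar RNAs (snoRNAs) guide the chemical modification and processing of ribosomal RNA, and most human snoRNAs are cut from the introns of other genes. In the genes described here the introns carry the snoRNAs, and the spliced exons make a long noncoding RNA with only short reading frames. Ribosomes can engage such a spliced RNA, and for GAS5 and several of its relatives translation leads to nonsense-mediated decay, so the spliced RNA is known to build up when translation or this decay is blocked. Many host genes start with a terminal oligopyrimidine (TOP) tract, a C followed by further C or T bases, as ribosomal protein genes do. GAS5 takes its name, growth arrest-specific, from its accumulation in arrested cells.

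All values are the deposited log2 values. A change is the log2 difference NCT-503 minus DMSO with its standard error (SE) from limma, and a gene is called at a Benjamini-Hochberg adjusted p under 0.05 over all genes tested. Upper quartiles of the arrays, taken over the whole table, lay between 6.03 and 6.08 for NCT-503 and between 6.16 and 6.19 for DMSO. Of all genes tested, 2419 were called higher and 2534 lower, and 3345 and 2189 when each array was centred on its 75th percentile. Of 9 neuroblastoma markers, 7 had a row. These markers changed in both directions. CHGA, a protein of secretory granules, averaged 8.45 with NCT-503 and 9.68 with DMSO and fell by 1.23, and the transcription factors HAND2 and ISL1 fell by 0.30 and 0.29. PHOX2A rose by 0.75, and GATA3 and DBH, which makes noradrenaline, by 0.37 each, while TH, the first catecholamine enzyme, averaged 5.88 with NCT-503 and 6.05 with DMSO and was not called. Their part in the changes of the host genes was not tested. With 3 arrays a group, precision is limited.

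The start regions of the host genes are shown because their TOP tracts are the sequence feature the family is known for. They come from RefSeq (GRCh38.p14), which had an entry for 5 of the 6 genes, all but SNHG15, and run from 30 bases before the annotated start to 50 bases from it on. Capitals mark the longest stretch of C followed by at least 4 C or T that begins within 10 bases of the start, or, where there is none, the longest further on.
GAS5: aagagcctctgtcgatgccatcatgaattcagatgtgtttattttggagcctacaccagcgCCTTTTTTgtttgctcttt
ZFAS1: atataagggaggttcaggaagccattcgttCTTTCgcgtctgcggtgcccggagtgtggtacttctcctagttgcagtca
SNHG5: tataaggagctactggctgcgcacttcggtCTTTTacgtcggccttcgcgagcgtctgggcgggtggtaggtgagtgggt
SNHG8: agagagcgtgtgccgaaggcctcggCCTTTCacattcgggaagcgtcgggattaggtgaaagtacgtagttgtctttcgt
SNHG16: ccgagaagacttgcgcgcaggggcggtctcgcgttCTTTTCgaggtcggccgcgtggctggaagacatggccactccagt

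These stretches lie at chr1:173868996-173869075 on the minus strand (GAS5), chr20:49278612-49278691 on the plus strand (ZFAS1), chr6:85678684-85678763 on the minus strand (SNHG5), chr4:118278732-118278811 on the plus strand (SNHG8) and chr17:76557734-76557813 on the plus strand (SNHG16). ZFAS1 and SNHG5 had a TOP tract at the annotated start itself, which 4.07% of 35116 annotated starts have on the transcribed strand, the only strand searched. In SNHG8 the marked tract began 5 bases before the start and in SNHG16 at base 6, so 4 of the 5 genes had one within 10 bases, against 33.5% of all starts. Over the tested genes with a start sequence, each counted if any of its starts had one, the shares were 6.12% at the start and 41% within 10 bases. In GAS5 the annotated start was an A, and its marked tract of 8 letters began at base 32. A match describes the letters of this window and not a site in use in these cells.

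With NCT-503, GAS5, ZFAS1 and SNHG16 rose, by 1.43-fold, 1.45-fold and 1.25-fold. The other 3 genes also had means above those of DMSO but were not called, SNHG8 with a fold of 1.20, SNHG5 with 1.14 and SNHG15 with 1.10. The 3 genes called higher stand against 16.4% of all genes tested, and limma called none of the 6 lower, against 17.1% of all genes. At an unadjusted p under 0.05, 5 of the 6 were higher and 0 lower. The median change of the 6 genes was 0.29, against 0.06 over all genes tested. In 5 of the 6 every NCT-503 array lay above every DMSO array, which was so for 25.4% of all genes tested, and in none did every NCT-503 array lie below, which 22.4% of all genes did. These shares were not matched for level. Each host gene averaged 6.75 or more in both groups, against array medians of 4.97 to 5.03 over the genes tested. With only genes above the 50th percentile of mean level tested, 5 of the host genes were called higher. In that smaller set 2153 genes were called higher and 2377 lower, so both shares were larger than over all genes tested.

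GAS5 lies on chromosome 1, and 11 annotated snoRNA genes lie inside it, among them SNORD44, SNORD47 and SNORD74 to SNORD81. Its log2 values were 9.55, 9.63 and 9.54 in the NCT-503 samples, against 8.96, 9.00 and 9.21 in the DMSO samples. The NCT-503 arrays sat close together and all lay above DMSO c, the highest of the DMSO arrays, with a gap of 0.33. GAS5 averaged 9.57 ± 0.05 with NCT-503 and 9.06 ± 0.14 with DMSO (SD, n = 3 each). Its change was 0.51 ± 0.09 (SE, 95% interval 0.30 to 0.73, limma adjusted p = 0.00471).

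ZFAS1, on chromosome 20, is transcribed away from the zinc finger gene ZNFX1 and holds SNORD12, SNORD12B and SNORD12C. It had log2 values of 10.57, 10.66 and 10.43 with NCT-503, against 9.97, 10.17 and 9.91 with DMSO. Arrays b were the highest of both groups, and the groups did not overlap, with a gap of 0.26. The means were 10.55 ± 0.12 with NCT-503 and 10.02 ± 0.14 with DMSO (SD, n = 3 each), and the change was 0.54 ± 0.10 (SE, 95% interval 0.30 to 0.78, limma adjusted p = 0.00633). This change and that of GAS5 differed by 0.02 ± 0.15 (SE from the spread between arrays, not from limma).

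SNHG16, on chromosome 17, is also known as ncRAN, a name given for its expression in aggressive neuroblastoma, and holds SNORD1A, SNORD1B and SNORD1C. Its values were 10.73, 10.78 and 10.76 with NCT-503, against 10.46, 10.42 and 10.43 with DMSO. These were the tightest groups of the 6 genes, with means of 10.76 ± 0.02 with NCT-503 and 10.43 ± 0.02 with DMSO (SD, n = 3 each), and the gap between them was 0.28. The change was 0.32 ± 0.07 (SE, 95% interval 0.16 to 0.48, limma adjusted p = 0.0101). On quantile-normalised arrays it was 0.19 and the call was lost (limma adjusted p = 0.0732).

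SNHG8, on chromosome 4, holds SNORA24, a guide for pseudouridylation. It had values of 9.42, 9.27 and 9.10 with NCT-503, against 9.00, 9.03 and 8.98 with DMSO. The NCT-503 arrays were spread over a wider range than the DMSO arrays, and the lowest of them, NCT-503 c, lay 0.07 above the highest DMSO array. The means were 9.27 ± 0.16 with NCT-503 and 9.00 ± 0.03 with DMSO (SD, n = 3 each). The change of 0.27 ± 0.10 (SE, 95% interval 0.04 to 0.49) was not called (limma adjusted p = 0.0733). Without NCT-503 c it was 0.35 and was called (limma adjusted p = 0.0269).

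SNHG5, on chromosome 6, holds SNORD50A and SNORD50B. Its values were 8.20, 8.06 and 8.04 with NCT-503, against 7.93, 7.92 and 7.87 with DMSO. The groups did not overlap, with a gap of 0.11, and NCT-503 a stood highest. SNHG5 averaged 8.10 ± 0.09 with NCT-503 and 7.91 ± 0.03 with DMSO (SD, n = 3 each). Its change was 0.19 ± 0.08 (SE, 95% interval 0.01 to 0.38, limma adjusted p = 0.103).

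SNHG15, on chromosome 7, holds SNORA9 and makes a short-lived spliced RNA. Its values were 6.98, 6.91 and 6.74 with NCT-503, against 6.85, 6.67 and 6.72 with DMSO. It was the only one of the 6 genes whose groups overlapped, since NCT-503 c lay below DMSO a. The means were 6.88 ± 0.12 with NCT-503 and 6.75 ± 0.10 with DMSO (SD, n = 3 each). The change was 0.13 ± 0.09 (SE, 95% interval -0.09 to 0.35, limma adjusted p = 0.326), so a rise of the size of SNHG16 lies inside its interval.

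**Figure D1:**
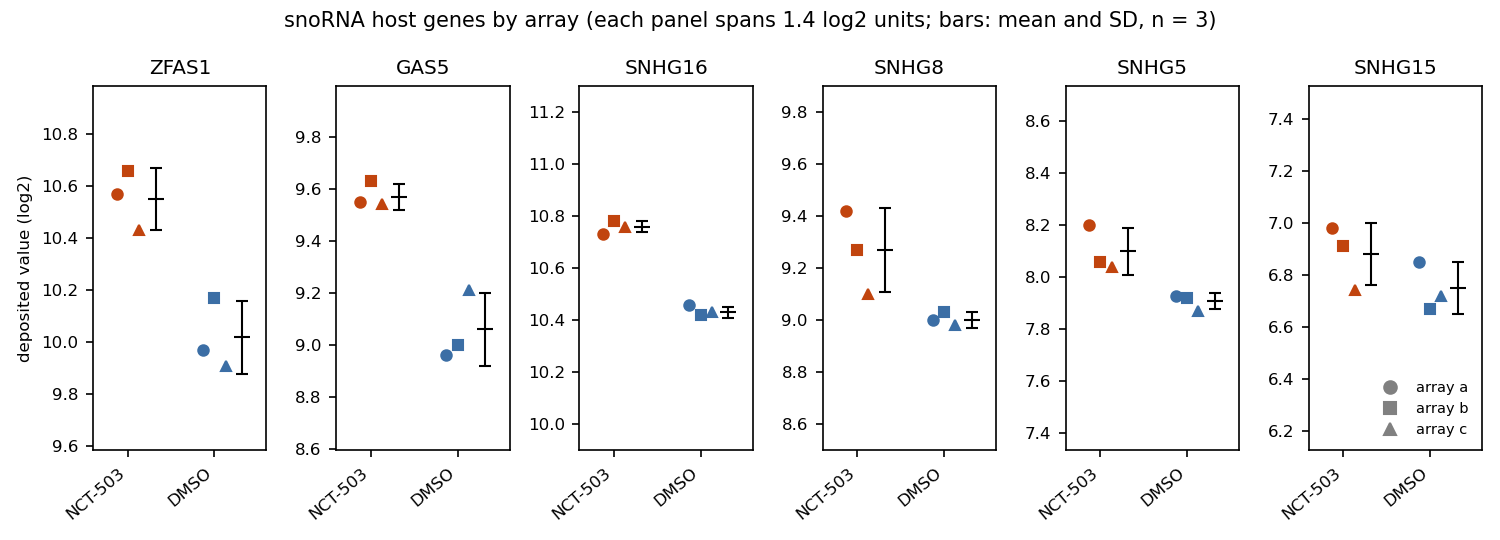
Deposited log2 value of each host gene on each array, NCT-503 left and DMSO right in every panel, with marker shapes for arrays a, b and c and bars for mean and SD (n = 3). The NCT-503 arrays lie above all DMSO arrays in 5 genes, and in SNHG15 the groups overlap.

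The order of the changes was ZFAS1, GAS5, SNHG16, SNHG8, SNHG5 and SNHG15. For all 15 pairs the difference in level between 2 host genes was taken on each array and its mean compared between the groups. The SE of these comparisons comes from the spread of the differences over the arrays of each group, not from limma. The change of ZFAS1 exceeded that of SNHG15 by 0.41 ± 0.13 (SE) and that of SNHG5 by 0.34 ± 0.10, and the change of GAS5 exceeded that of SNHG15 by 0.38 ± 0.13. Each of these had a two-sided exact permutation p of 0.10, which is the smallest that 3 against 3 arrays allow, and an adjusted p of 0.214 over the 15 pairs. They were among 7 pairs whose differences did not overlap between the groups, all with these same p-values. GAS5 exceeded SNHG16 by 0.19 ± 0.09. The lower neighbours in the order lay closer: SNHG16 exceeded SNHG8 by 0.06 ± 0.10, SNHG8 exceeded SNHG5 by 0.07 ± 0.05, and SNHG5 exceeded SNHG15 by 0.06 ± 0.07.

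Among the NCT-503 arrays, c was the lowest for 5 of the 6 host genes, all but SNHG16. With each gene centred on its own mean over the 6 arrays, the mean of the 6 genes was 0.22, 0.20 and 0.08 on NCT-503 a, b and c, against -0.16, -0.16 and -0.17 on DMSO a, b and c. The same mean over all genes tested lay between -0.006 and 0.007 on every array. The part that array c has in these results was not tested beyond leaving it out.

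The scaling of the arrays moved the changes of the 6 genes. It moved those of all genes too, whose median change was 0.06 as deposited with 2419 called higher. With arrays centred on the median, 4 of the 6 were called higher and their median change was 0.34. Over all genes tested the median was then 0.11, with 2990 called higher. Centred on the 75th percentile, 5 of the 6 were called, all but SNHG15, and their median change was 0.36, against 0.13 and 3345 called higher over all genes. On quantile-normalised arrays GAS5 and ZFAS1 were called, each with a change of 0.45, and the median change of the 6 was 0.20. All genes tested then had a median of 0.04, with 2490 called higher. SNHG8 then stood at 0.20 and SNHG16 at 0.19, SNHG5 stayed at 0.19, and SNHG15 was at 0.20, above its deposited 0.13. All 6 changes stayed above 0 under these scalings.

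**Figure D2:**
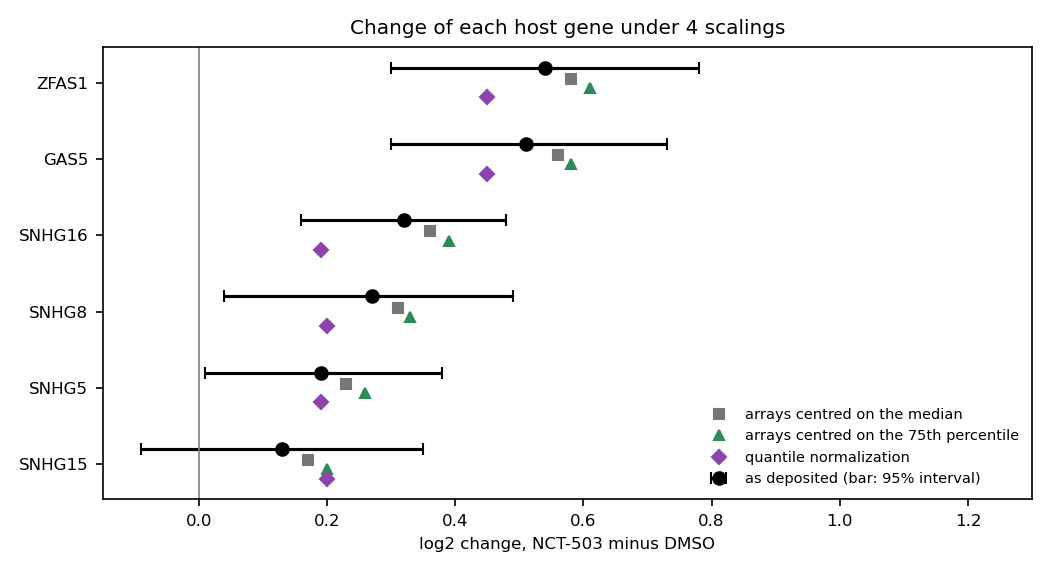
Log2 change, NCT-503 minus DMSO, of each host gene as deposited (black, 95% interval from limma) and under 3 other scalings of the arrays. GAS5 and ZFAS1 lie at 0.45 or above under each scaling, and SNHG15 lies between 0.13 and 0.20.

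None of the 36 snoRNAs listed for the 10 host genes had a named row, so the values here are those of the host genes and say nothing of the snoRNAs cut from them. The arrays measured bulk RNA, in which more cells with an RNA and more of it per cell cannot be told apart, nor can faster synthesis and slower decay. Each of the 6 host genes had a single row, so no second set of probes checks its value.

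The nearest measured protein-coding genes on each side of the host genes moved in both directions. GAS5 overlaps ZBTB37, a zinc finger gene, in the reference table. ZBTB37 had values of 7.35, 7.33 and 7.37 with NCT-503, against 6.92, 6.83 and 6.90 with DMSO, and rose by 0.47 ± 0.07 (SE, limma adjusted p = 0.00236), close to the 0.51 of GAS5. Whether probes of either gene detect the other's RNA was not tested. On the other side of GAS5, CENPL, a centromere gene, fell by 0.42 ± 0.11 (limma adjusted p = 0.0227), a call lost in 6 of 18 alternatives, quantile normalization and leaving out NCT-503 a, NCT-503 b or DMSO c among them (0.0649 to 0.0702 for the arrays), and 1 protein-coding gene without a row here lies between them.

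SNHG15 lies between MYO1G and CCM2 with no protein-coding gene between. CCM2, which takes part in blood vessel integrity, averaged 3.70 ± 0.33 with NCT-503 and 4.35 ± 0.23 with DMSO (SD, n = 3 each) and fell by 0.64 ± 0.19 (SE, limma adjusted p = 0.0345), while SNHG15 did not pass, and MYO1G had a change of -0.16. The CCM2 call was lost without DMSO a, DMSO b, NCT-503 b or NCT-503 c (limma adjusted p = 0.0659 to 0.101). Next to SNHG5, TBX18 rose by 0.70 and ZNF292 fell by 0.44, at distances that hold 3 and 4 other protein-coding genes. TBX18 averaged 4.61 with NCT-503 and 3.92 with DMSO, below the array medians of 4.97 to 5.03 over the genes tested. Neither measured neighbour of ZFAS1 (CSE1L 0.08, PTGIS 0.13), of SNHG8 (NDST3 -0.23, METTL14 -0.13) or of SNHG16 (PRCD -0.27, MXRA7 0.27) was called. Not all of these lie directly beside their host gene. Protein-coding genes without a row here lie between, 3 for CSE1L, 1 for PTGIS, 1 for METTL14 and 3 for MXRA7, against 0 for NDST3 and PRCD.

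**Figure D3:**
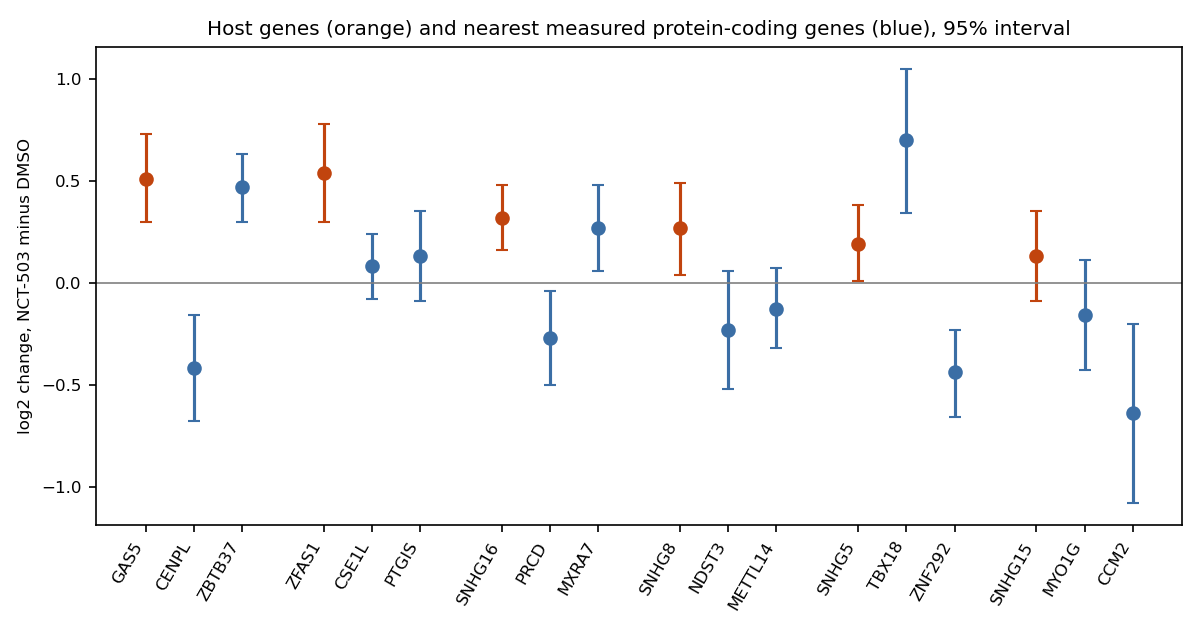
Log2 change, NCT-503 minus DMSO, with 95% interval (limma, 3 arrays per group) for each host gene (orange) and the nearest measured protein-coding gene on each side (blue). GAS5 and its overlapping neighbour ZBTB37 lie at 0.51 and 0.47, while the neighbours of the other host genes lie between -0.64 and 0.70.

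Genes with a TOP tract were read from the same reference. Of 10715 tested genes with an annotated start sequence, 656 had a TOP tract at a listed start, counting a gene once if any of its starts had one. Of these 29.9% were called higher and 11.7% lower, with a median change of 0.15. Among the 10059 genes without one, 17.0% were called higher and 18.2% lower, with a median of 0.06. With a tract counted anywhere within 10 bases of a start the sets lay closer: of 4396 genes with one 20% were called higher and 15.9% lower (median 0.08), and of 6319 with none 16.2% and 19.2% (median 0.05). Without ribosomal protein genes 627 TOP genes were left, of which 29.2% were called higher. Of 37 lncRNA genes with a TOP tract 3 were called higher (8.11%), against 8.91% of 988 without one. Of the host genes with a tract at the start, ZFAS1 rose and SNHG5 was not called. Of those with one only within 10 bases, SNHG16 rose and SNHG8 was not called, and GAS5, with neither by its annotated start, rose. GAS5 was classed by that start alone, and whether it uses another start in these cells was not tested. The sets with and without a TOP tract differ in expression level and gene class, and neither was matched.

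**Figure D4:**
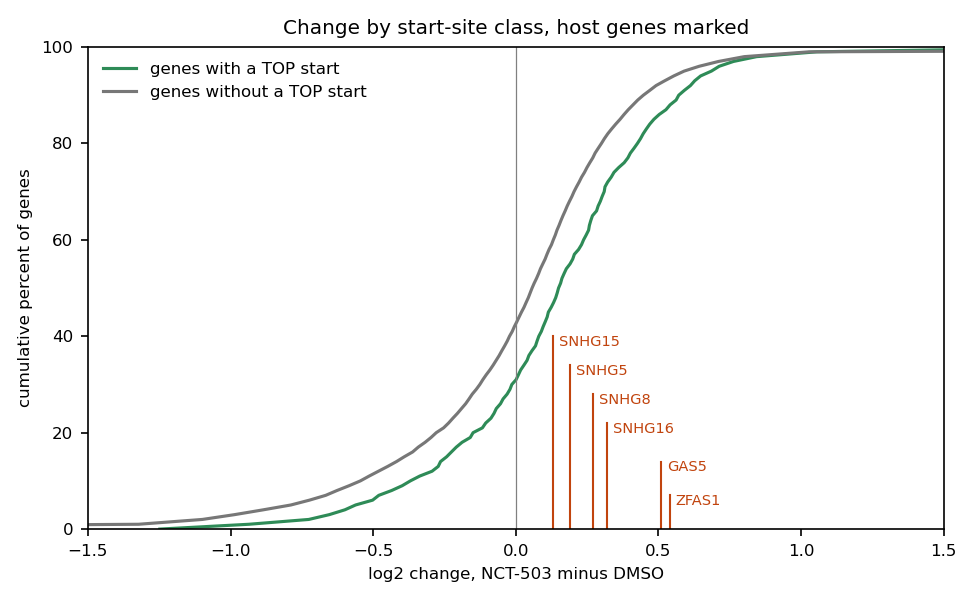
Cumulative percent of genes (vertical axis) against log2 change, NCT-503 minus DMSO, for 656 genes with a TOP tract at a start (green) and 10059 without (grey), with the 6 host genes marked by orange lines whose heights carry no value. The green curve lies to the right over most of the range, and all 6 host genes lie above 0.

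Other noncoding host genes did not share 1 direction. Of 19 listed, 6 had a row. EPB41L4A-AS1, which holds a single annotated snoRNA gene, rose by 0.66 ± 0.11 (SE, limma adjusted p = 0.00313), with 8.33, 8.48 and 8.50 with NCT-503, against 7.57, 7.89 and 7.85 with DMSO. DANCR, known as a suppressor of differentiation, fell by 0.45 ± 0.10 (limma adjusted p = 0.0150), and SNHG10 fell by 0.34 ± 0.10 (limma adjusted p = 0.0347). The SNHG10 call was lost in 9 of 18 alternatives, among them quantile normalization (0.0884) and leaving out any array but NCT-503 b (limma adjusted p = 0.0708 to 0.0984), and that of DANCR without DMSO a (0.0502). SNHG17 (0.22), SNHG18 (0.05) and SNHG20 (-0.22) did not pass. SNHG10 and SNHG20 are hosts by the list. The count used below found no snoRNA gene inside them, so they fall in its set of lncRNA genes with none. That count left out genes of small Cajal body RNAs, relatives of snoRNAs, so the set may hold hosts of those. Among all 31 tested lncRNA genes with an annotated snoRNA gene inside them, the 6 host genes of this account included, 22.6% were called higher and 9.68% lower. Without the 6, 25 were left, of which 16.0% were called higher and 12.0% lower with a median change of 0.05, near the shares over all genes tested. Among the 1348 lncRNA genes with none, 7.57% were called higher and 15.1% lower, close to the 7.90% and 15.0% of all lncRNA genes tested. The grouping of these lncRNA genes was made after values had been seen.

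Of 44 listed protein-coding snoRNA hosts, 11 had a row, and 5 were called higher and 3 lower. RPL17, a ribosomal protein gene, rose by 0.55 ± 0.09, while CHD8, a chromatin remodeller, NOP58, a core snoRNP protein, and WDR43, a factor of small-subunit assembly, fell by 0.87 ± 0.07, 0.62 ± 0.08 and 0.44 ± 0.08 (SE). Over all 308 tested protein-coding genes with an annotated snoRNA gene inside, 18.8% were called higher and 24.7% lower, with a median change of 0.01 against 0.25 for the 11 listed. Of 15 measured genes for proteins that bind or assemble snoRNAs, 6 were called lower and 2 higher. SHQ1, which guards newly made dyskerin, fell by 0.60 ± 0.08, and TGS1, the cap hypermethylase, fell by 0.53 ± 0.07, whereas RPAP3, a chaperone partner, rose by 0.36 ± 0.09 and SNU13, a core box C/D protein, by 0.34 ± 0.08. Both calls were lost in 3 of the fits that left out 1 array, RPAP3 without DMSO a, DMSO b or NCT-503 c (limma adjusted p = 0.0503 to 0.0670) and SNU13 without DMSO a, NCT-503 a or NCT-503 b (0.0523 to 0.0603). The median change of these 15 genes was -0.15, against 0.29 for the 6 host genes.

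Of 12 listed factors of nonsense-mediated decay, 4 had a row. Limma called 0 of them, and at an unadjusted p under 0.05 NBAS was higher and UPF1 lower. UPF1, the central helicase of this decay, averaged 6.92 ± 0.08 with NCT-503 and 7.12 ± 0.09 with DMSO (SD, n = 3 each), a change of -0.20 ± 0.08 (SE, limma adjusted p = 0.109), and UPF2 averaged 6.72 with NCT-503 and 6.73 with DMSO. NBAS had a change of 0.20 and was called higher when the arrays were centred on the median or on the 75th percentile. In the exon junction complex, which marks spliced RNA, EIF4A3 fell by 0.56 ± 0.10 and CASC3 rose by 0.34 ± 0.07 among 4 measured genes. Of 20 genes of decapping, 5′ to 3′ decay and the exosome, 6 were called lower and 3 higher. EXOSC3 and EXOSC2, of the exosome cap, fell by 0.78 ± 0.11 and 0.77 ± 0.08, the core subunit gene EXOSC4 by 0.65 ± 0.16 and the decapping partner DCP1B by 0.61 ± 0.17, whereas EXOSC8, DCP2 and EXOSC10 rose by 0.44, 0.40 and 0.28. With 1 array left out, the EXOSC4 call was lost without DMSO b, NCT-503 b or NCT-503 c (limma adjusted p = 0.0573 to 0.0625), that of DCP1B without any one DMSO array (0.0695 to 0.0739), and that of EXOSC10 without DMSO a, DMSO b, NCT-503 b or NCT-503 c (0.0596 to 0.0940). Without NCT-503 c the change of DCP1B was -0.40.

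Protein-coding transcripts known to be sensitive to nonsense-mediated decay were called higher in 5 of 6 measured, with a median change of 0.98. DDIT3 rose by 3.40, CARS1 by 1.12, UPP1 by 1.04, ATF3 by 0.92 and ATF4 by 0.71, and TBL2 had a change of -0.05. UPP1 averaged 4.87 with NCT-503 and 3.83 with DMSO, ATF3 4.90 and 3.99, and DDIT3 4.48 with DMSO. All of these means lay below the array medians of 4.97 to 5.03 over the genes tested. DDIT3, CARS1 and ATF3 are also known targets of ATF4, so this list does not separate the 2. Of 8 measured TOP translation genes outside the ribosome, EEF1G (0.53 ± 0.08), EEF2 (0.37 ± 0.08), BTF3 (0.36 ± 0.08) and EIF4B (0.25 ± 0.07) were called higher and none lower by limma, also at an unadjusted p under 0.05. The EIF4B call was lost in 10 of 18 alternatives, leaving out any one of the 6 arrays included (limma adjusted p = 0.0519 to 0.0967). Its change was 0.16 on quantile-normalised arrays and 0.39 as the mean of its rows. Of 5 measured lncRNAs that host no snoRNA, MALAT1 rose by 0.80 ± 0.08, and KCNQ1OT1, LINC-PINT and NORAD fell by 1.15 ± 0.10, 0.40 ± 0.12 and 0.31 ± 0.09. Under both centrings of the arrays only 1 of these 5 was called lower. The call of LINC-PINT went when NCT-503 a, NCT-503 b, DMSO b or DMSO c was left out (limma adjusted p = 0.0520 to 0.0965), and its change was -0.79 as the mean of its rows. That of NORAD went when any array but NCT-503 c was left out (limma adjusted p = 0.0644 to 0.0992).

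**Figure D5:**
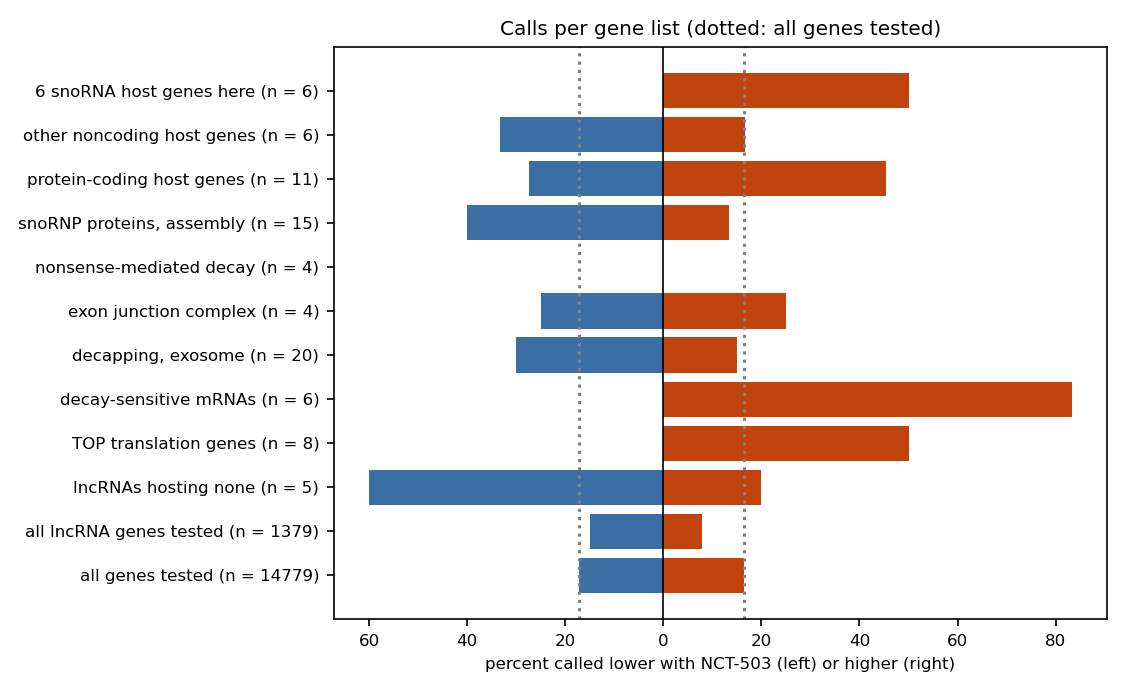
Percent of measured genes called lower (left, blue) or higher (right, orange) with NCT-503 per gene list, with the number measured in brackets and dotted lines at the shares over all genes tested (17.1% lower, 16.4% higher). The 6 host genes have 3 higher and 0 lower calls.

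The genes whose profile lay closest to the mean profile of the 6 host genes were found by the root mean square difference over the 6 arrays, each gene centred on its own mean. They were FIBP (0.0146), PPT1 (0.0174), INO80C (0.0197), LINGO4 (0.0212) and MYO1F (0.0235), in log2 units. The 6 host genes themselves lay at 0.0494 (SNHG16) to 0.135 (ZFAS1) from that mean. FIBP had values of 7.36, 7.37 and 7.24 with NCT-503, against 7.02, 7.03 and 6.99 with DMSO, low on NCT-503 c as 5 of the host genes were. The likeness describes 6 arrays in 2 groups and nothing further.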

How the data were processed

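The values are the deposited log2 values of 6 arrays. Per the submitters' processing notes the authors used Partek. No source used here gives the background correction, probe summary or normalization. The log2 scale was taken from the range of the values. Of 31135 rows, 15098 had 1 gene symbol in the platform annotation, and the Entrez identifiers of these rows all occurred in a RefSeq gene table (GRCh38.p14). For a gene with several rows the one with the highest mean was used, which left 14779 genes, with no filter on low values. No source used here names the array's own build, so coordinates belong to the RefSeq sequences.

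The 2 groups were compared by lmFit and eBayes of limma 3.58.1 (R 4.3.3), two-sided, and called at an adjusted p under 0.05. The steps were tested on simulated data. Alternatives were other variance models, array weights, a replicate block, 3 scalings, 2 filters, other row choices, a threshold of 0.01 and leaving out each array.

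Members and lists were chosen with earlier results of these data known. Named are all members, up to 4 called genes per list with the largest change and those against the list's direction, the nearest measured protein-coding genes and the 5 closest profiles. Other genes were named after their values were seen.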

Additional observations from a re-analysis of the deposited data

How the results depend on the processing

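Across 18 alternative settings GAS5 and ZFAS1 were called higher in every one (changes 0.45 to 0.59 and 0.45 to 0.62), and SNHG15 in none (0.08 to 0.20). SNHG16 was called in 16, all but quantile normalization and the threshold of 0.01, SNHG8 in 8 and SNHG5 in 4. The host genes called higher numbered 5 after centring on the 75th percentile, with a variance trend, with a robust trend and with genes above the 50th percentile of mean level, since SNHG5 and SNHG8 were then called. Over all genes those called higher rose as well, from 2419 to 3345, 2654 and 2658 in the first 3 of these settings. The last tested a smaller set, with 2153 called higher. An adjusted p under 0.01 left 1226 genes higher and 1682 lower, and all rows of the table, named or not, gave 4100 lower. Of the 999 values of 56 named genes, 880 kept their call and direction, 95 lost it, 24 gained one, and none that was called changed direction. With arrays a, b and c as a replicate block, 3 host genes were called higher, and 2108 genes were higher and 2327 lower. Same-letter arrays did not deviate together (correlations of 0.00361, 0.00263 and 0.0375), so the letters were not taken as pairs. Signal over background was not examined.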

Other observations

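Small Cajal body RNAs (scaRNAs), relatives of snoRNAs that guide the modification of spliceosomal RNAs and are also mostly cut from introns, had 21 named rows and were looked at after their values were seen. Of these, 8 were called higher (38.1%) and 3 lower (14.3%) with NCT-503, with a median change of 0.36. Over all genes tested the shares were 16.4% and 17.1%, with a median of 0.06. SCARNA9 had values of 9.54, 9.47 and 9.46 with NCT-503, against 8.69, 8.90 and 8.68 with DMSO, a change of 0.73 ± 0.09 (SE, limma adjusted p = 0.00086). SCARNA9L, close to it by name, was counted among the 8 as well (0.76). Whether probes of either detect the other's RNA was not tested. SCARNA23 rose by 1.04 ± 0.17 and SCARNA20 by 0.94 ± 0.17, while SCARNA15 fell by 1.63 ± 0.21 and SCARNA27 by 1.02 ± 0.14. SCARNA23 averaged 4.69 with NCT-503 and 3.66 with DMSO, and SCARNA15 averaged 2.78 and 4.41. Both lay below the array medians of 4.97 to 5.03 over the genes tested.

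SNHG33, a noncoding gene with 3 annotated snoRNA genes inside it that was on no list, had values of 6.79, 6.82 and 7.07 with NCT-503, against 5.79, 5.86 and 5.42 with DMSO. It rose by 1.20 ± 0.14 (SE, 2.30-fold, limma adjusted p = 0.000733), more than any of the 6 host genes described above. Among the other lncRNA genes with an annotated snoRNA gene inside, THAP9-AS1 and LINC03006 rose by 0.57 ± 0.13 and 0.61 ± 0.12, and STX18-AS1 and TMEM161B-DT fell by 1.08 ± 0.08 and 0.61 ± 0.08. These genes were picked after their values were seen. LINC03006 averaged 4.63 with NCT-503 and 4.02 with DMSO, below the array medians of 4.97 to 5.03 over the genes tested.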
